A study of Mus musculus with 35 samples.

Results

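The CCR4-NOT complex is the main cytoplasmic deadenylase of animal cells, and its subunits were followed here in spinal motoneurons of a mouse model of amyotrophic lateral sclerosis (ALS). The members were 10 named subunit genes, measured by every probe set of the array that names exactly 1 gene. Of the 10, 9 genes had such a probe set, among 18194 genes so named on the whole array, and they had 33 probe sets. Cnot1, the scaffold of the complex, had none, since its probe sets also name another gene. As in the study, a probe set is called a transcript here. Cnot10 was picked out by the study for its values at week 15, in vehicle-treated SOD1 mice against WT mice and in G-CSF-treated against vehicle-treated SOD1 mice. Its values in these comparisons are therefore a description, and the comparison of G-CSF-treated with WT mice, made of the same mice, is treated in the same way. The comparison at week 11 rests on other mice and was tested.

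Lumbar motoneurons were laser-dissected from 35 mice, 300 cells per mouse, and their RNA was amplified in consecutive rounds with T7 polymerase and hybridized to 1 Affymetrix mouse array per mouse, so that the spread within a group is the spread between mice. SOD1 mice were hemizygous females from line B6.Cg-Tg(SOD1-G93A)1Gur/J, whose cells all hold the human SOD1 gene with the G93A mutation at high copy number, and the WT mice were C57BL/6J by their labels and littermates by the methods. There were 6 WT and 8 untreated SOD1 mice of 11 weeks, before motor signs, and at 15 weeks, with motor signs, 7 WT mice, 7 SOD1 mice given vehicle (a placebo in the labels) and 7 SOD1 mice given granulocyte colony-stimulating factor (G-CSF, as filgrastim) by a minipump under the skin from week 11. Whether the WT mice of week 15 carried a pump is not given in the sources used here. Age, cohort and, among SOD1 mice, the pump changed together and cannot be told apart.

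Deadenylation, the shortening of the poly(A) tail, is the step that usually starts the decay of an mRNA and lowers its translation. Cnot1 holds the complex together. The poly(A) tail is removed by 2 kinds of nuclease, the Caf1 type (Cnot7 or Cnot8) and the Ccr4 type (Cnot6 or Cnot6l). Cnot2 and Cnot3 form the NOT module, and Cnot4 is a RING-type ubiquitin ligase that is a stable subunit in yeast and more loosely bound in mammals. In human cells CNOT10 and CNOT11 bind each other and the front end of CNOT1. Proteins such as the GW182 proteins of the microRNA pathway (Tnrc6a, Tnrc6b, Tnrc6c), Pumilio and Roquin bring the complex to chosen mRNAs.

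Levels are log2 intensities as the authors normalized them with GCRMA, and every difference is a difference of group means on that scale, with its standard error (SE) from limma fitted over all 35 mice. A level of 1 probe set says nothing against that of another, so only differences are compared between probe sets. The filter of the methods (4 or more arrays above the 20th centile of all values, 2.40, and an SD no smaller than its 30th centile, 0.241) kept 31352 transcripts, among them 29 of the 33 of the complex. Of these 29, Cnot10 had 4, Cnot11 2, Cnot2 4, Cnot3 1, Cnot4 5, Cnot6 4, Cnot6l 4, Cnot7 3 and Cnot8 2. Following the thresholds in the methods, a transcript is named as called where its unadjusted p was under 0.05, its p after Benjamini-Hochberg adjustment over all 31352 transcripts was under 0.1 and the fold change reached 1.5. The 8 genes other than Cnot10 are called its partners, with 25 filtered transcripts.

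Array medians lay between 3.19 and 3.47. Neuronal and motoneuron markers were bright, with a mean of 13.47 for Nefl, 9.28 for Prph and 7.90 for Isl1, whereas the cholinergic enzyme gene Chat read 3.17 and passed the array median in 12 of 35 mice. The 18S ribosomal RNA control averaged 10.12 in 11-week and 13.13 in 15-week WT mice, which goes with cohort. There were 3 arrays that stood apart, those of WT mouse 6 (week 11) and of mice 3 and 5 in the vehicle group, with a median correlation with the arrays of their own group of 0.886 to 0.899. For the other 32 arrays this was 0.894 to 0.975. G-CSF-treated mouse 3 gave the lowest of these 32 and was kept throughout.

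Cnot10, the partner of Cnot11 in the complex, stood higher in vehicle-treated SOD1 mice than in every other group of week 15, on the transcript that the study lists (1433882_at). In WT mice of week 15 its level ran from 5.22 through a median of 5.70 to 5.75. In vehicle-treated SOD1 mice the lowest, median and highest values were 6.15, 6.43 and 7.07. G-CSF-treated SOD1 mice gave 4.93, 5.39 and 5.74. All 7 vehicle-treated mice therefore lay above all 7 WT and all 7 G-CSF-treated mice, while the G-CSF-treated and the WT mice overlapped. Means were 5.58 ± 0.20 (SD, n = 7) in WT, 6.57 ± 0.37 (n = 7) with vehicle and 5.36 ± 0.28 (n = 7) with G-CSF. Vehicle minus WT was 0.99 (SE 0.18, 95% interval 0.63 to 1.35), a 1.98-fold higher intensity. G-CSF minus vehicle was -1.20 (SE 0.18, -1.56 to -0.84), a 2.3-fold lower intensity. G-CSF minus WT was -0.21 (SE 0.18, -0.57 to 0.14). Without the arrays that stood apart, vehicle minus WT was 0.95 and G-CSF minus vehicle -1.16. In bulk RNA of dissected cells, fewer cells of a type and less RNA per cell cannot be told apart.

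**Figure D1:**
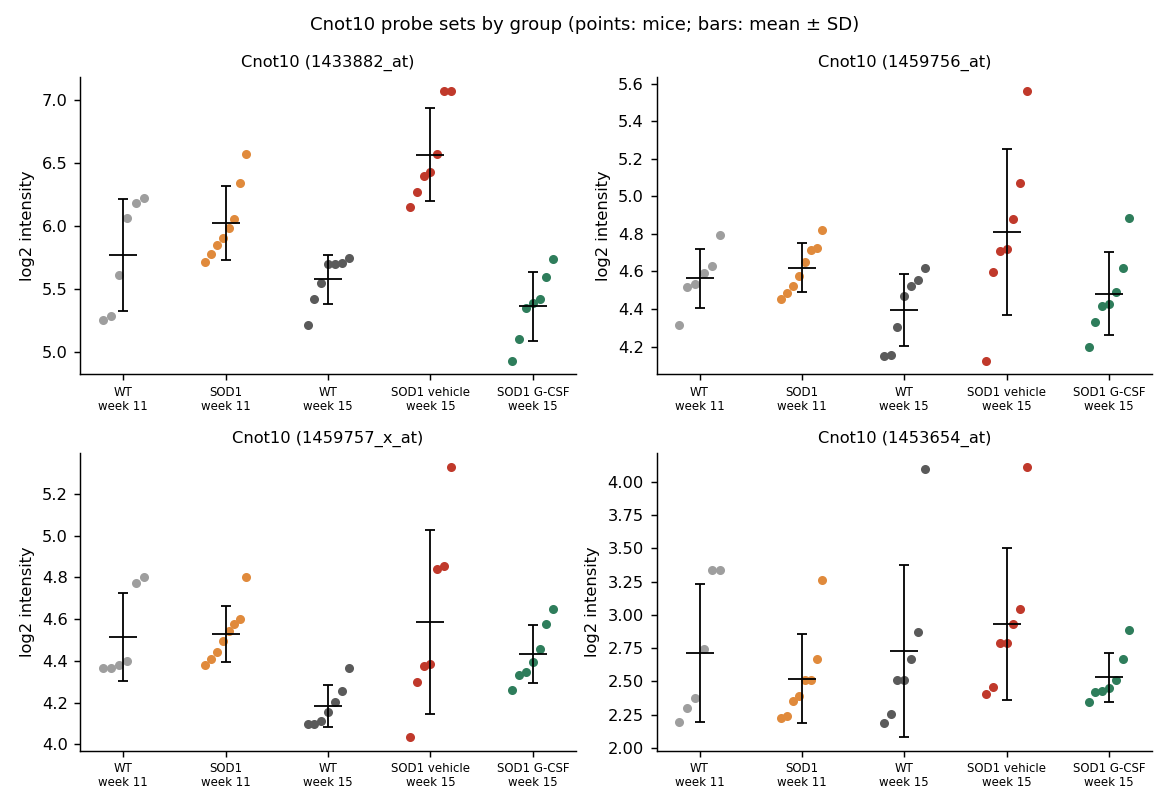
Log2 intensity of the 4 Cnot10 transcripts in each mouse (points, sorted by value within a group) with the group mean and SD (bars), for the 5 groups. Each panel has its own axis, which does not start at 0. On 1433882_at the 7 vehicle-treated mice, between 6.15 and 7.07, lie above the 7 WT and the 7 G-CSF-treated mice, and on the other 3 transcripts the groups overlap.

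At week 11 the same transcript ran from 5.25 through 5.84 to 6.22 in the 6 WT mice. The 8 SOD1 mice gave 5.71, 5.94 and 6.57, and the groups overlapped. The difference was 0.25 (SE 0.18, 95% interval -0.11 to 0.62), with an adjusted p of 0.669 in limma and a two-sided exact permutation p of 0.218. Without WT mouse 6 it was 0.15. Means were 5.77 ± 0.44 (SD, n = 6) and 6.03 ± 0.29 (n = 8). WT mice of week 15 minus WT mice of week 11 was -0.19, which compares different cohorts. The vehicle-treated SOD1 mice thus had the highest mean of the 5 groups, then SOD1 and WT mice of week 11, WT mice of week 15 and last the G-CSF group, and the ranges of each neighbouring pair in that order overlapped.

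The other 3 Cnot10 transcripts gave smaller differences, and their groups overlapped in both comparisons of week 15. Transcript 1459756_at ran from 4.15 through 4.47 to 4.62 in WT mice, from 4.12 through 4.72 to 5.56 with vehicle and from 4.20 through 4.43 to 4.89 with G-CSF. Its difference was 0.41 (SE 0.15) for vehicle minus WT and -0.33 (SE 0.15) for G-CSF minus vehicle. Transcript 1459757_x_at ran from 4.10 through 4.15 to 4.36 in WT mice, from 4.03 through 4.38 to 5.33 with vehicle and from 4.26 through 4.39 to 4.65 with G-CSF. Here vehicle minus WT was 0.40 (SE 0.14) and G-CSF minus vehicle -0.16 (SE 0.14). These transcripts were designed on 1 source sequence and are not independent of each other. Vehicle-treated mouse 5, whose array stood apart, was the highest of its group on both. Without it, 1459756_at gave 0.29 and -0.20, and 1459757_x_at gave 0.28 and -0.03, in a comparison added after seeing the data. The last, 1453654_at, lay close to the 20th centile of 2.40, with group means from 2.52 to 2.93. It gave 0.20 (SE 0.25) and -0.40 (SE 0.25). Without vehicle-treated mouse 4, a comparison added after seeing the data, vehicle minus WT on 1453654_at was 0.01. None of the 3 was called. At week 11 their differences were -0.19, 0.06 and 0.02 for 1453654_at, 1459756_at and 1459757_x_at.

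Set as the median of its 4 transcripts, Cnot10 gave 0.41 (SE 0.13) for vehicle minus WT and -0.24 (SE 0.13) for G-CSF minus vehicle, and neither was called, the first (95% interval 0.15 to 0.67) being below the 1.5-fold minimum. On the array, the size of the Cnot10 differences thus rested on 1433882_at. By quantitative PCR, the study reported that the rise of Cnot10 in SOD1 mice was fully undone with G-CSF. Those PCR values were not analysed here. On deviations from the group means over the 35 mice, Pearson's r with 1433882_at was 0.51 for 1459756_at, 0.23 for 1459757_x_at and -0.11 for 1453654_at. These are descriptions across arrays that share normalization and 18S level with their cohort.

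Cnot11, which docks on the complex together with Cnot10, gave differences of the other sign on its brighter transcript in vehicle-treated mice. Its transcript 1428533_at ran from 6.26 through 6.70 to 7.32 in WT mice of week 15, from 4.77 through 5.90 to 7.18 with vehicle and from 4.07 through 5.85 to 7.27 with G-CSF. Most SOD1 mice of week 15 lay below every WT mouse on this transcript, but the groups overlapped. Vehicle minus WT was -0.92 (SE 0.34, 95% interval -1.62 to -0.22), opposite in sign to Cnot10. G-CSF minus vehicle was -0.14 (SE 0.34, -0.84 to 0.56), and G-CSF minus WT was -1.05 (SE 0.34). None of these was called. It was called in vehicle against WT with the 18S level as a covariate, or without vehicle-treated mouse 1 or 7, and for G-CSF minus WT with array weights or without G-CSF-treated mouse 2. At week 11, 1428533_at averaged 7.25 ± 0.36 (SD, n = 6) in WT and 7.40 ± 0.43 (n = 8) in SOD1 mice.

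The second filtered Cnot11 transcript, 1439772_at, did not share this pattern. Its group means were 4.88, 4.96 and 5.24 in WT, vehicle-treated and G-CSF-treated mice of week 15, so vehicle minus WT was 0.08 (SE 0.29). At week 11 it ran from 3.67 through 3.97 to 4.67 in WT and from 4.23 through 4.72 to 5.24 in SOD1 mice. That difference was 0.67 (SE 0.30), with an adjusted p of 0.375 in limma, and the groups overlapped. A further Cnot11 transcript, 1452824_at, was designed on the same source sequence as 1428533_at and did not pass the filter.

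The Caf1-type nucleases Cnot7 and Cnot8 gave small differences on their brighter transcripts over all mice, with no call. Cnot7 1423641_s_at averaged 9.52 ± 0.17 (SD, n = 7) in WT mice of week 15, 9.29 ± 0.43 with vehicle and 9.44 ± 0.42 with G-CSF. The interval of vehicle minus WT was -0.63 to 0.17, and that of G-CSF minus vehicle -0.25 to 0.55. Cnot8 1451102_at averaged 7.03 ± 0.45, 6.99 ± 0.82 and 7.19 ± 0.34 in the same order. Its intervals were -0.56 to 0.47 and -0.31 to 0.71. Without vehicle-treated mouse 5, which read 8.70 on an array that stood apart, vehicle minus WT on 1451102_at went from -0.05 to -0.33. G-CSF minus vehicle then went from 0.20 to 0.49, also in a comparison added after seeing the data. The dim Cnot8 transcript 1421135_a_at gave 0.41 (SE 0.24) for vehicle minus WT and -0.35 (SE 0.24) for G-CSF minus vehicle, with means of 2.75, 3.16 and 2.81. Without vehicle-treated mouse 5 these differences were 0.16 and -0.09, in a comparison added after seeing the data. At week 11 it ran from 2.71 through 3.04 to 4.22 in WT and from 3.10 through 3.76 to 4.11 in SOD1 mice, a difference of 0.53 (SE 0.24, adjusted p 0.412 in limma).

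The Ccr4-type nucleases Cnot6 and Cnot6l did not give the same signs. All 4 Cnot6l transcripts stood below WT in vehicle-treated mice, with differences from -0.78 to -0.25, and above vehicle in G-CSF-treated mice, with differences from 0.10 to 0.60. None was called. On 1425481_at, however, only 1 vehicle-treated mouse passed the 20th centile of 2.40, and without WT mouse 3 its difference from WT went from -0.78 to -0.33, a comparison added after seeing the data. Of the others, 1434311_at gave -0.78 and 0.53, 1451723_at -0.34 and 0.10, and 1425480_at -0.25 and 0.17. Without vehicle-treated mouse 5, whose array stood apart and which read 2.57, 1434311_at gave -0.45 and 0.20, again a comparison added after seeing the data. Both differences hold the same vehicle-treated mice, so their opposite signs are not independent. As the median of its 4 transcripts, Cnot6l was 0.60 lower in vehicle-treated than in WT mice (-0.60, SE 0.21) and was called at the gene level, as 6.82% of 14257 genes were. G-CSF minus vehicle of that median was 0.39 (SE 0.21), not called. In contrast, Cnot6 gave 0.62 (SE 0.34) for vehicle minus WT on its brightest transcript, 1426682_at, and -0.38 to -0.16 on its other 3. Its dimmest, 1426685_a_at, averaged 3.42, 3.09 and 4.03 in WT, vehicle-treated and G-CSF-treated mice. On it, G-CSF minus vehicle was 0.94 (SE 0.32), the highest value of the partners, with overlapping groups and no call.

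Within the NOT module, Cnot2 gave vehicle minus WT differences from -0.53 to -0.19 on its 4 filtered transcripts. The brightest, 1436980_x_at, averaged 8.65 ± 0.37 (SD, n = 7) in WT mice of week 15, 8.32 ± 0.47 with vehicle and 8.81 ± 0.40 with G-CSF. On 3 of the 4, Cnot2 stood higher with G-CSF than with vehicle, by 0.38 to 0.49, and 1454603_a_at stood lower (-0.37, SE 0.39). Cnot3, on its 1 filtered transcript 1435965_at, averaged 4.07 ± 0.20, 4.25 ± 0.57 and 4.09 ± 0.34, and its interval of vehicle minus WT was -0.30 to 0.67. No Cnot2 or Cnot3 transcript was called in any comparison.

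Cnot4, the ubiquitin ligase, had the lowest partner value at week 15 and the only transcript of the complex whose groups did not overlap at week 11. Its transcript 1436645_a_at ran from 8.36 through 8.61 to 9.01 in the 6 WT mice of week 11. In the 8 SOD1 mice it ran from 7.47 through 7.98 to 8.17, so that every SOD1 mouse lay below every WT mouse. The difference was -0.73 (SE 0.22, 95% interval -1.18 to -0.27), with an adjusted p of 0.131 in limma, over the threshold of 0.1. Among all 31352 transcripts, 0.705% did not overlap at week 11. The other 4 Cnot4 transcripts overlapped, with differences from -0.47 to 0.23. At week 15, 1436645_a_at averaged 8.50 in WT mice, 8.60 with vehicle and 8.66 with G-CSF. The lowest partner value of vehicle minus WT was on 1421000_at (-0.93, SE 0.45), which averaged 6.66 ± 0.63 in WT and 5.73 ± 1.35 with vehicle.

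**Figure D2:**
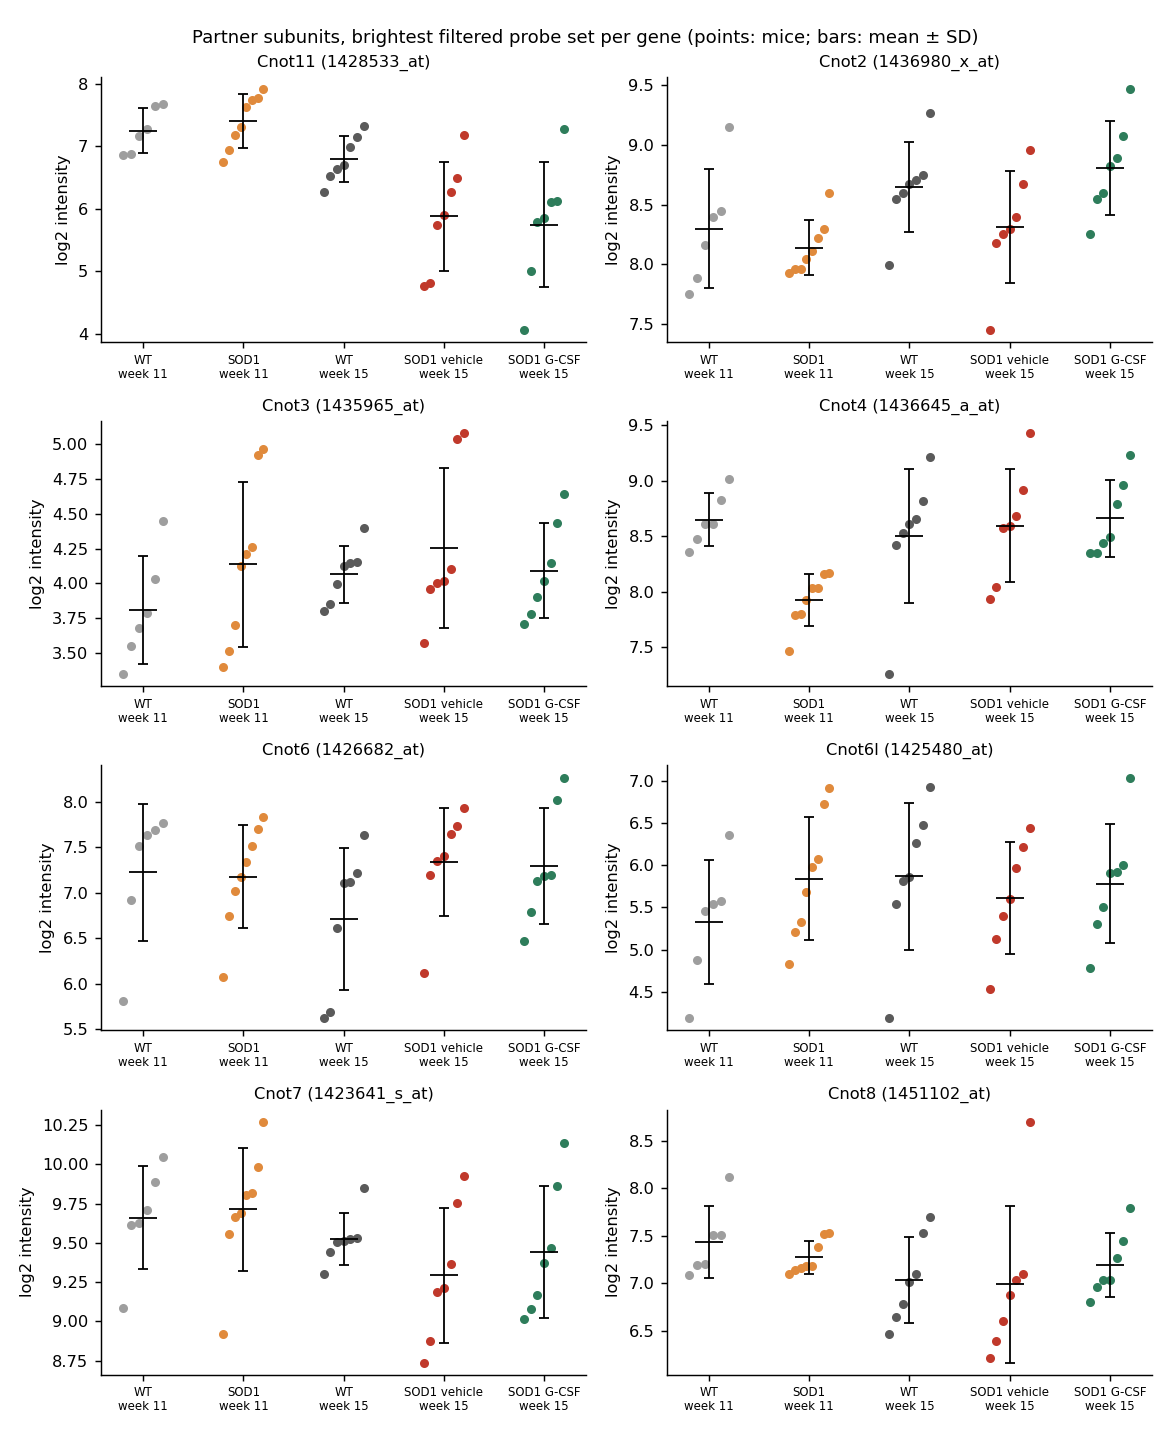
Log2 intensity of 1 transcript for each of the 8 partner genes, the filtered one with the highest mean over all mice, in each mouse (points, sorted by value within a group) with the group mean and SD (bars). Each panel has its own axis, which does not start at 0. Cnot4 at week 11 is the panel in which the SOD1 mice, between 7.47 and 8.17, lie below all WT mice, and the groups of week 15 overlap in every panel.

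Counted over the complex, 0 of 29 transcripts were called by limma at week 11, where 1.32% of all transcripts were. Tukey's comparison, the post-hoc test that the methods name, called 0 as well. Its p-values were adjusted again over all transcripts here, so its counts are not those of the study's own test. In limma, 3 of 29 had an unadjusted p under 0.05, on Cnot4, Cnot8 and Cnot11, against 11% of all transcripts. The partner differences ran from -0.73 to 0.67 with a median of 0.16, 15 above 0 and 10 below. Over all 31352 transcripts the median was -0.01. Fitted on the mice of week 11 alone, Cnot4 1436645_a_at was called, and with array weights a Cnot4 and a Cnot11 transcript were called.

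In vehicle-treated SOD1 against WT mice, 1 of 29 transcripts was called, that of Cnot10 which the study had picked, where 5.91% of all transcripts were called. At an unadjusted p under 0.05 there were 6 of 29, against 19.5%, and 3 of the 6 were Cnot10 transcripts, which leaves 3 of 25 partners (Cnot4, Cnot6l and Cnot11). None of the 25 partner transcripts was called, and none stood clear of WT without overlap, as 1.5% of all transcripts did. Their differences ran from -0.93 to 0.62 with a median of -0.25, and 20 of 25 were below 0. Over all transcripts the median was 0.02. Several of the 25 measure the same gene and are not independent. Across all transcripts, 5.08% had a larger absolute difference than Cnot10.

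G-CSF-treated against vehicle-treated SOD1 mice gave 1 call among the 29, again the picked Cnot10 transcript, where 0.0383% of all transcripts were called, 12 of 31352. At an unadjusted p under 0.05 there were 4 of 29, against 8.3%, of which 2 were Cnot10 transcripts and 2 were of partners (Cnot2 and Cnot6). Cnot10 was the 1 transcript of these 31352 that was lower in every G-CSF-treated mouse than in every vehicle-treated mouse, and 3 were higher without overlap, together 0.0128%. In size it ranked lower, with a larger absolute difference for 0.702% of transcripts. The partner differences ran from -0.53 to 0.94 with a median of 0.15, 16 above 0 and 9 below, and the median over all transcripts was -0.001. When limma was fitted on these 14 SOD1 mice alone, no transcript of the array was called, Cnot10 included.

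**Figure D3:**
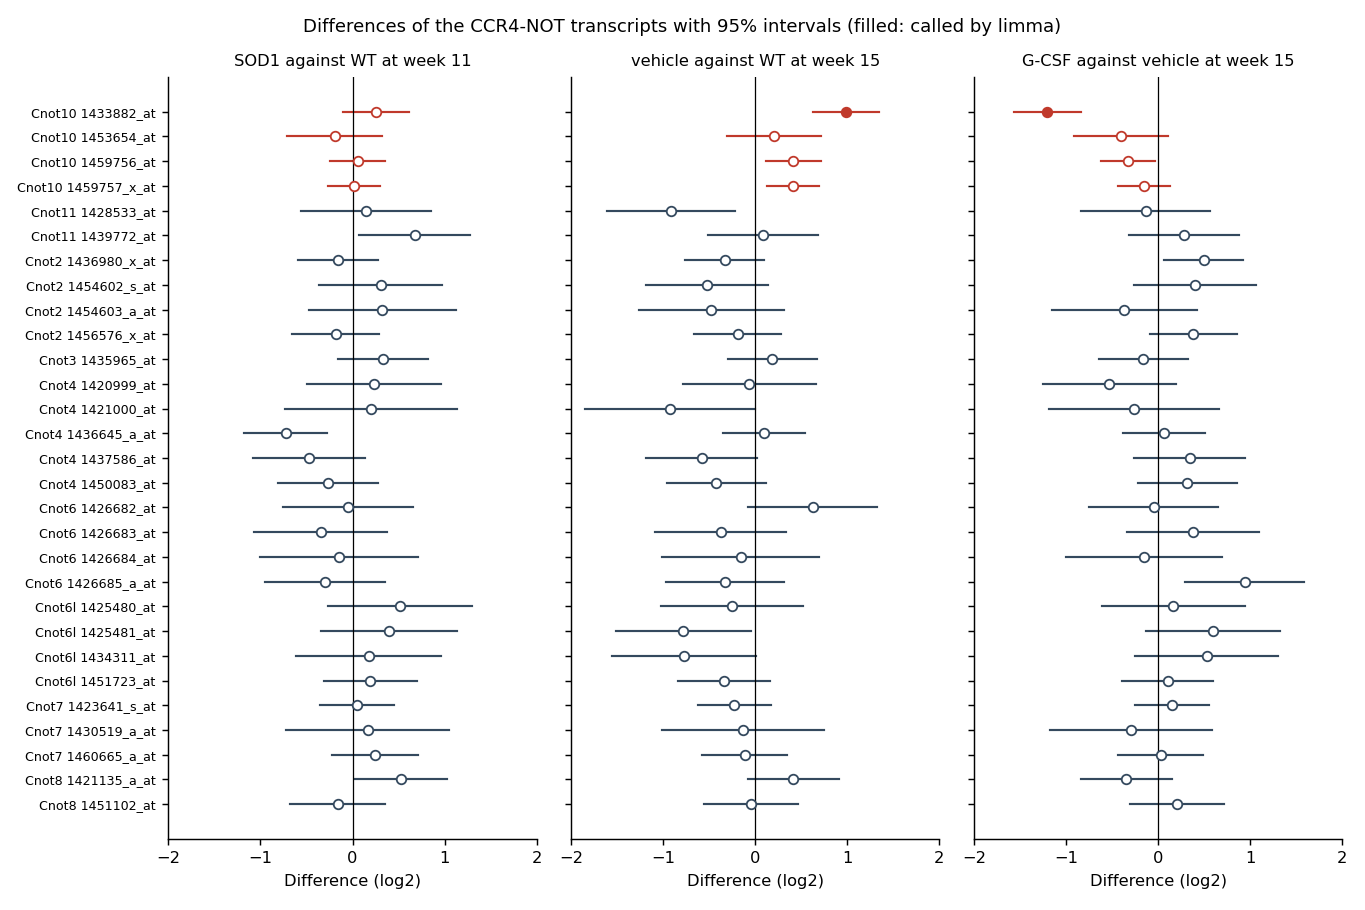
Difference of group means on the log2 scale (points) with its 95% interval (lines) for the 29 filtered transcripts of the complex, in SOD1 against WT mice of week 11, vehicle-treated SOD1 against WT mice of week 15 and G-CSF-treated against vehicle-treated SOD1 mice. Filled points were called by limma and red marks Cnot10, whose transcript 1433882_at lies at 0.99 in the middle panel and at -1.20 in the right panel, while no partner point is filled.

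G-CSF-treated SOD1 against WT mice gave 0 calls among the 29 transcripts, where 1.13% of all transcripts were called by limma, and 0 with Tukey's comparison. With an unadjusted p under 0.05 there were 3 of 29, against 12.7%. Here the partners ran from -1.19 (Cnot4 1421000_at, SE 0.45) to 0.61. WT mice of week 15 against WT mice of week 11 also gave 0 of 29 in limma, against 5.56% of all transcripts, and 5 of 29 with an unadjusted p under 0.05, against 17.4%. Whether the difference between SOD1 and WT mice changed from week 11 to week 15 was tested for the 25 partner transcripts. None had an adjusted p under 0.1 in limma (lowest 0.168), where 2.99% of all transcripts did.

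The genes around the complex were read from lists of other deadenylases, recruiters and decay factors. Of 12 filtered transcripts of other partners of the complex (Cnot9, Tob, Btg and Tnks1bp1 genes), 0 were called by limma in any comparison. At an unadjusted p under 0.05 there were 1 to 3 per comparison, where 8.3% to 19.5% of all transcripts had one. Other deadenylases, such as Pan2, Pan3, Parn and the Angel genes, had 17 transcripts and 0 calls in the 4 comparisons that involve SOD1 mice. Of the 17, 3 had an unadjusted p under 0.05 at week 11, against 11% of all transcripts. In each comparison of SOD1 mice at week 15 there were 0 to 1, against 8.3% to 19.5%. Between the WT cohorts, 3 transcripts of Angel2 and Pan3 were called higher and 1 of Angel2 lower at week 15. Among all transcripts, 3.29% were called higher and 2.26% lower there.

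Recruiters had 54 filtered transcripts of 20 genes. At week 11, 0 of them were called higher and 2 lower in SOD1 mice, where 1.13% of all transcripts were called higher and 0.188% lower. Tnrc6a, a GW182 protein of the microRNA pathway, averaged 4.26 ± 0.56 (SD, n = 6) in WT and 3.50 ± 0.26 (n = 8) in SOD1 mice on 1439245_at, a difference of -0.76 (SE 0.18, adjusted p 0.0402 in limma). Rc3h2, a Roquin protein that binds stem-loops of mRNAs, averaged 5.82 ± 0.46 and 5.15 ± 0.23 on 1420143_at, a difference of -0.67 (SE 0.18, adjusted p 0.0773 in limma). In vehicle-treated against WT mice of week 15, Pum2, a Pumilio protein that binds 3′ untranslated regions, was called higher (1.19, SE 0.31). Cpeb4, a protein that binds cytoplasmic polyadenylation elements, was called lower (-1.27, SE 0.31). Its relative Cpeb1 was called lower in G-CSF-treated against WT mice (-1.91, SE 0.44). Of the 54, 1 was thus called higher and 1 lower in vehicle against WT, where 1.72% and 4.2% of all transcripts were. In G-CSF against WT, 0 were called higher and 1 lower, where 0.348% and 0.778% of all transcripts were. In each of these comparisons, week 11 included, no other recruiter transcript was called. That holds for every other transcript of the genes named here, so each call rests on a single transcript. Between the WT cohorts, 6 of the 54 recruiter transcripts were called higher at week 15, where 3.29% of all transcripts were.

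Decapping and 5′-to-3′ decay factors had 29 filtered transcripts of 17 genes, and 0 were called at week 11, where 1.32% of all transcripts were. At an unadjusted p under 0.05 there were 7 at week 11, against 11% of all transcripts. Ddx6, the helicase that CNOT1 binds in human cells, was called lower in vehicle-treated against WT mice of week 15 on 1439122_at (-1.13, SE 0.39). The Ddx6 transcripts also differed between the WT cohorts, by 3.31 and 1.54, so its level went strongly with cohort. Lsm7, of the Lsm ring, was called higher in G-CSF-treated against WT mice (0.67, SE 0.17). No other transcript of this list was called in either comparison with WT mice of week 15. Of the 29, 0 were thus called higher and 1 lower in vehicle against WT, where 1.72% and 4.2% of all transcripts were. In G-CSF against WT, 1 was called higher and 0 lower, where 0.348% and 0.778% of all transcripts were. In G-CSF-treated against vehicle-treated mice, 0 transcripts of these 4 lists were called by limma. At an unadjusted p under 0.05 there were 2 of 12, 0 of 17, 6 of 54 and 4 of 29, in the same order, against 8.3% of all transcripts.

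**Figure D4:**
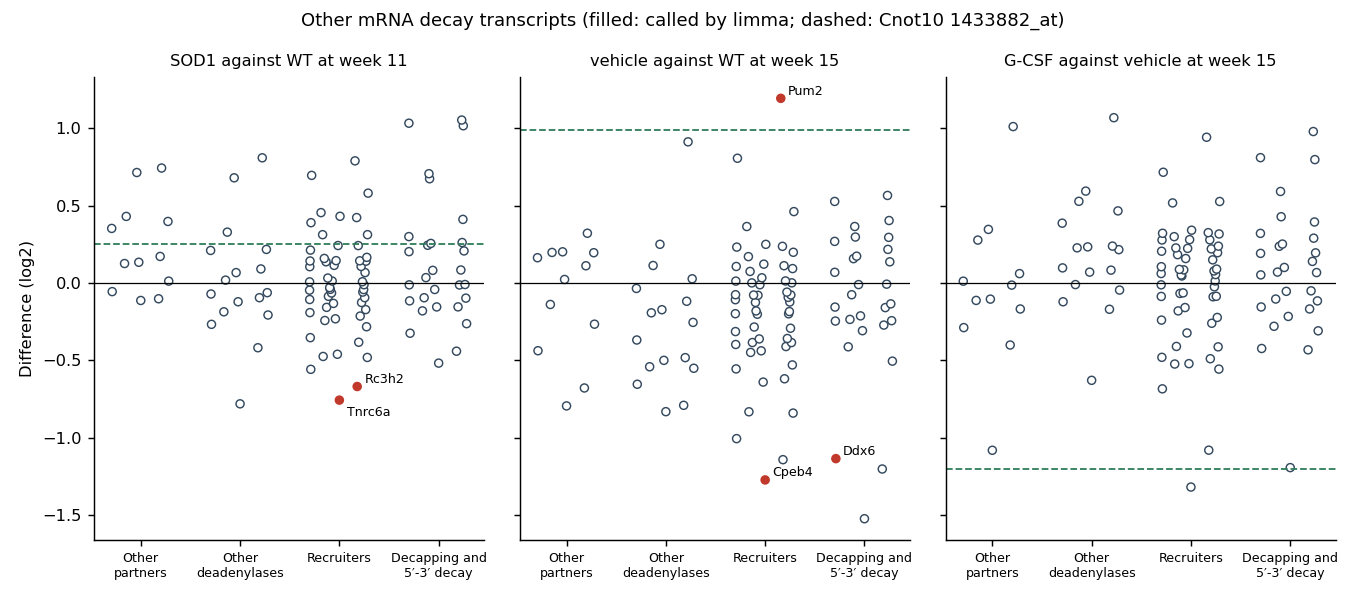
Difference of group means on the log2 scale of each filtered transcript in 4 lists of mRNA decay genes (points, spread sideways for sight only) in the same comparisons, with called transcripts filled and named and the Cnot10 transcript 1433882_at as a dashed line. Calls are few, with Tnrc6a and Rc3h2 at -0.76 and -0.67 at week 11, Pum2 at 1.19, Cpeb4 at -1.27 and Ddx6 at -1.13 for vehicle minus WT, and 0 for G-CSF minus vehicle.

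Markers of other cell types were read in the same mice. Microglia markers, as the mean of 12 genes, read 3.83 (range 3.59 to 3.98) in WT mice of week 15, 4.83 (4.08 to 5.34) with vehicle and 4.65 (3.93 to 5.99) with G-CSF. In vehicle-treated against WT mice, 7 of 16 microglia transcripts were called higher and 0 lower, against 1.72% and 4.2% of all transcripts. In G-CSF against vehicle, 0 were called. The defining markers Itgam and Aif1 passed the 20th centile in 10 and 6 of 35 mice, whereas Csf1r and Ctss lay above the array median in 35 of 35, with means of 7.86 and 7.55. The 8 astrocyte markers averaged 7.75 (7.25 to 8.10), 8.13 (7.73 to 8.37) and 7.85 (7.47 to 8.14) in WT, vehicle-treated and G-CSF-treated mice. Among their 23 transcripts, 1 was called higher with vehicle than in WT mice, against 1.72% of all transcripts. The highest vehicle minus WT difference of the 23 was 3.70, of Gfap. Their median was 0.06, against 0.02 for all transcripts. The 8 motoneuron markers averaged 6.67 (6.38 to 6.88), 6.29 (5.80 to 6.71) and 6.26 (5.91 to 6.74). Of their 13 transcripts, 2 were called lower with vehicle than in WT mice, against 4.2% of all transcripts. Without overlap, 1 of the 13 lay below WT, against 0.884% of all transcripts. In G-CSF against vehicle, 0 of the 13 were called. The 18S control averaged 13.13, 12.80 and 12.70. General neuronal markers (9 genes) averaged 10.79, 10.43 and 10.49, and 3 of their 16 transcripts were called lower with vehicle than in WT mice, against 4.2%. Without overlap, 2 of the 16 lay below WT, against 0.884% of all transcripts. Interneuron markers (5 genes) read 6.48 (6.30 to 6.62), 7.03 (5.73 to 7.62) and 7.32 (6.42 to 8.11), with 0 calls for vehicle minus WT and for G-CSF minus vehicle. Oligodendrocyte markers averaged 8.26, 7.94 and 7.79, with 1 of 20 transcripts called lower with vehicle, and endothelial markers 3.76, 3.75 and 3.78. The part of these in the values of the complex was not tested.

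**Figure D5:**
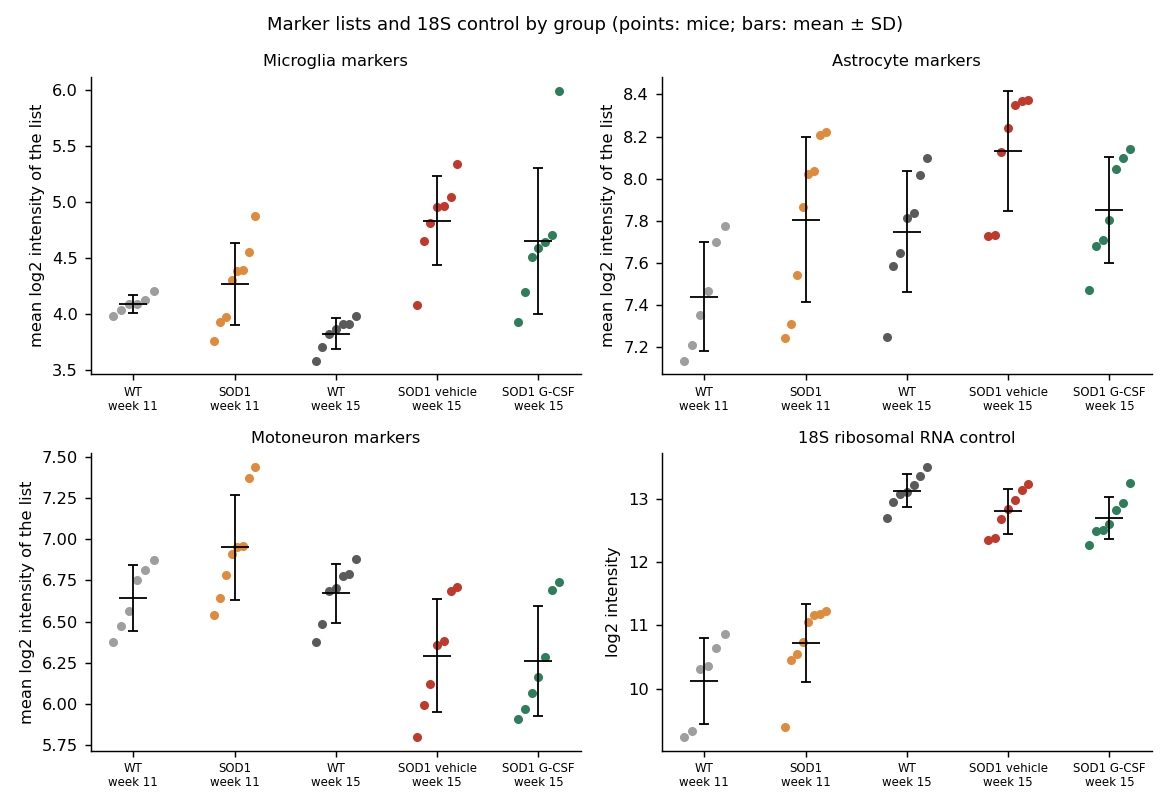
Mean log2 intensity of the microglia, astrocyte and motoneuron marker lists and log2 intensity of the 18S ribosomal RNA control in each mouse (points, sorted by value within a group) with the group mean and SD (bars). Each panel has its own axis, which does not start at 0. Microglia markers average 4.83 with vehicle and 4.65 with G-CSF against 3.83 in WT mice of week 15, and 18S separates the cohorts of week 11 from those of week 15.

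From mouse to mouse within groups, partners followed Cnot10 weakly. On deviations from the group means over 35 mice, the highest partner was Cnot8 1421135_a_at, with Pearson's r of 0.32, which ranked 1564 of 25585 transcripts. The lowest was Cnot11 1428533_at, with r of -0.30. The transcripts most like Cnot10 by this measure were those of Stx18 (r = 0.67), Oas1c (0.65), Fbxo28 (0.64), Fkbp11 (0.63) and Rps18 (0.62). They are the top of 25585 values and are given as a description. Their differences for G-CSF minus vehicle were 0.04, -0.30, 0.09, -0.41 and 0.21.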

How the data were processed

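The authors dissected, amplified and hybridized 1 RNA per mouse to Affymetrix mouse arrays and normalized them by GCRMA (Affymetrix Expression Console, whose version is not given in the sources used here). Log2 intensities of 45101 probe sets were deposited, 64 of them controls. Genes were named through the platform annotation and current gene numbers, giving 34958 probe sets with 1 gene, 932 with several and 9211 with none. The 20th and 30th centile filter of the methods was applied.

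A linear model with a mean for each group over 35 mice was fitted in limma 3.58.1 under R 4.3.3, and p-values were adjusted over all 31352 filtered transcripts. The step was tested on simulated data. The members and all lists were chosen with earlier results of these data known. Every filtered transcript of the members was counted and drawn with its differences, but not each is named or given with its values in the text. List genes were counted and named where called, and the 5 transcripts most like Cnot10 were named by Pearson's r. Not every called list transcript between the WT cohorts is named. Alternatives were fits on 2 groups, Tukey's comparison, array weights, a replicate block, an 18S covariate and quantile normalization. Other filters and thresholds, the median per gene and leaving out mice were also tried. Tukey's p-values, already set for the comparisons among groups, were adjusted again over all transcripts, so these counts are not those of the study's own test. Figures were drawn with Python 3.11.15 and matplotlib 3.10.9. The number of arrays limits the precision, and quantitative PCR was not analysed here.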

Additional observations from a re-analysis of the deposited data

Results flagged for a closer look

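In 19 of 145 combinations of a filtered transcript and a group, 1 mouse lay far from the rest of its group. Chance gives about 1 in 20 groups. No such mouse was found on Cnot10 1433882_at in any group. On the dim Cnot10 transcript 1453654_at, SOD1 mouse 3 of week 11 read 3.26, WT mouse 5 of week 15 read 4.09 and vehicle-treated mouse 4 read 4.11, each above its group. On Cnot2, WT mouse 3 of week 11 was high on 1454602_s_at (7.73) and SOD1 mouse 1 of week 11 low on 1454603_a_at (3.74). WT mouse 6 of week 15 was low on Cnot4 1436645_a_at (7.26). On Cnot6 1426682_at, vehicle-treated mouse 5 was low (6.11). WT mouse 3 of week 11 (6.00) and G-CSF-treated mouse 1 (7.26) were high on Cnot6 1426683_at. Vehicle-treated mouse 1 (7.13) and G-CSF-treated mouse 5 (5.76) were high on Cnot6 1426684_at.

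On Cnot6l, WT mouse 3 of week 15 was high on 1425481_at (5.68) and G-CSF-treated mouse 1 low on 1434311_at (3.35). SOD1 mouse 4 of week 11 (4.63) and WT mouse 4 of week 15 (4.37) were high on Cnot6l 1451723_at. WT mouse 2 of week 15 was high on Cnot7 1423641_s_at (9.85). On Cnot8 1421135_a_at, WT mouse 5 of week 11 was high (4.22) and G-CSF-treated mouse 2 low (2.38). Vehicle-treated mouse 5, whose array stood apart, was high on Cnot8 1451102_at (8.70).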

How the results depend on the processing

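Leaving out each mouse in turn, the Cnot10 difference on 1433882_at ran from 0.15 to 0.34 at week 11, from 0.90 to 1.06 for vehicle minus WT, from -1.27 to -1.12 for G-CSF minus vehicle and from -0.28 to -0.14 for G-CSF minus WT. Calls among the 29 transcripts were then 0, 1 to 2, 1, and 0 to 1 in the same order, the added call being Cnot11 without vehicle-treated mouse 1 or 7 and without G-CSF-treated mouse 2. As the median of its transcripts, Cnot10 gave 0.41, -0.24 and 0.17 in the 3 comparisons of week 15, and the calls in G-CSF against vehicle were 0. On 2 groups alone there was 1 call at week 11 and 0 in G-CSF against vehicle. Array weights gave 2 calls at week 11 and 1, of Cnot11, in G-CSF against WT. In vehicle against WT there were 2 calls with the 18S covariate and 2, both of Cnot10, with no minimum fold. The adjusted p of Cnot10 at week 11 ran from 0.514 to 1 over the alternatives. The cause of these shifts was not tested.

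Counts over all transcripts moved more. Leaving out each mouse in turn, they ran at week 11 from 147 without WT mouse 5 to 563 without WT mouse 4, and were also over 1.5 times lower without WT mice 2 or 6 or SOD1 mice 3, 4, 7 or 8. They ran from 1259 to 2319 in vehicle against WT. In G-CSF against vehicle they ran from 4 without G-CSF-treated mouse 5 to 48 without vehicle-treated mouse 4, and moved over 1.5 times without G-CSF-treated mice 2, 3 or 4 or vehicle-treated mice 3 or 7 as well. In G-CSF against WT they ran from 211 without G-CSF-treated mouse 7 to 763 without G-CSF-treated mouse 1, with 228 without WT mouse 6. At week 11 they were 413, and 56 with Tukey's comparison, 1114 with array weights, 155 with the replicate block, 216 with quantile normalization and 232 without WT mouse 6. In vehicle against WT they were 1854, and 266 with Tukey's comparison and 1174 on 2 groups. In G-CSF against vehicle they were 12, and 0 on 2 groups, 1 with Tukey's comparison, 3 with array weights and 43 without vehicle-treated mice 3 and 5. In G-CSF against WT they were 353, and 35 with Tukey's comparison and 818 with array weights. Mice with the same replicate number showed no shared deviation, with 0 pairs correlated over 0.1. This cannot show whether mice were matched in another way. With the replicate block the Cnot10 difference at week 11 was 0.20 (adjusted p 0.841 in limma), and the calls of the complex were as without it. No fit without the arrays that stood apart applies to G-CSF against WT, which holds none of them. Near the 20th centile, GCRMA values limit how well a difference can be sized, as for Cnot10 1453654_at, Cnot6l 1425481_at and Cnot8 1421135_a_at.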

Other observations

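The 2 probe sets of Cnot1 also name Gm6158, so their values cannot be given to the scaffold gene alone. On 1434251_at the group means were 6.68 and 6.63 in WT and SOD1 mice of week 11, and 5.73, 5.40 and 5.26 in WT, vehicle-treated and G-CSF-treated mice of week 15. On 1457546_at they were 3.40 and 2.65 at week 11, and 2.58, 3.12 and 2.65 at week 15.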
